A study of Mus musculus with 48 samples.

Results

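Natural killer (NK) cells were picked out of single-cell RNA counts of GL261 mouse brain tumors by the genes they transcribe. A cell of the whole-tumor mix was taken as an NK cell when it had at least 500 detected genes, at least 2 of the NK genes Ncr1, Klrb1c, Klra8, Klre1 and Eomes, and at most 1 transcript copy over Cd3d, Cd3e and Cd3g, the CD3 genes of T cells. It also had to lack Cd8a, the CD8 coreceptor of T cells, and Ms4a7, a macrophage gene. These measured values chose the NK cells, which were selected on them alone. The rule found 226 NK cells among 8726 cells of the mix with at least 500 genes, and 3 more among 5535 cells of a separate CD11b+ table. Both tables together held 14261 such cells.

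NK cells are lymphocytes of innate immunity that kill stressed, infected or transformed cells with perforin and granzymes, and that release interferon-gamma and chemokines. They carry no rearranged T cell receptor and weigh signals from activating receptors against inhibitory ones, many of which read class I MHC molecules on the target cell. In brain tumors they are a small fraction of the infiltrate, and the selectin ligand PSGL-1, encoded by Selplg, lets them and other leukocytes bind P-selectin.

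GL261 glioma cells with a control hairpin RNA that has no target (shNC) or with a hairpin against the P-selectin gene Selp (shSELP) were implanted in the striatum of young male C57BL/6 mice. The hairpin entered the tumor cells by retrovirus and puromycin selection, so the knockdown belonged to the tumor cells and the NK cells were host cells of the same genotype in both groups. The mix was labelled as day 16 after implantation and the CD11b+ cells as day 21, while the study's methods name another day. Brains were pooled within a group, and equal amounts of CD11b+ cells, other CD45+ cells and everything else were joined, so that shares are those of the mixture and not of the tumor. The comparisons rest on 2 shNC and 2 shSELP libraries. The study's methods describe a pool of brains per group, without saying whether both libraries of a group came from it.

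Each NK cell is described by unique molecular identifiers (UMIs), which count captured RNA molecules. The libraries shNC 1, shNC 2, shSELP 1 and shSELP 2 held 41, 93, 34 and 58 NK cells with 135726, 490053, 128797 and 368774 UMIs. Levels below are CPM, the UMIs of a gene summed over the NK cells of a library and scaled to the same total in every library, 1 CPM being 1e-6 of all UMIs there. The median NK cell had 2586 UMIs in shNC 1, 3686 in shNC 2, 3360 in shSELP 1 and 5078.5 in shSELP 2, below the medians of 9547, 8051, 6164 and 9879.5 over all cells of the mix. A gene without a UMI can lie at up to 22.1 CPM in shNC 1, 6.12 in shNC 2, 23.3 in shSELP 1 and 8.14 in shSELP 2, by the 3 counts that a 0 allows. No cell barcode was shared between the NK cells of different libraries, while 2 barcodes were shared by shNC 2 and shSELP 2 and 3 by shSELP 1 and shSELP 2 over all cells.

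The values that chose the cells are a description only. Klre1, an NK lectin-like receptor, was detected in 209 of the 226 cells. Klrb1c, which encodes the antigen NK1.1, was detected in 181, and Eomes, a transcription factor of NK cells, in 137. Ncr1, which encodes the activating receptor NKp46, was found in 107 and Klra8, which encodes Ly49H, in 99. Exactly 2 of the 5 genes were found in 50 cells, 3 in 87, 4 in 73 and all 5 in 16, and 18 cells carried the 1 CD3 UMI that the rule allows.

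The rule separated cells that differed in genes it did not use. The 50 cells just inside, with 2 of the 5 genes, had a median of 3440 UMIs and 2689 CPM of the granule protein gene Nkg7, and 7626 CPM of Gzma, which encodes granzyme A. The 75 cells just outside, with 1 of the 5 genes and otherwise passing, had a median of 8243 UMIs, 229.5 CPM of Nkg7 and 817 CPM of Gzma. Cd74, the invariant chain of class II MHC in antigen-presenting cells, stood at 430.2 CPM inside and 11722 CPM outside. In NK cells with 3 or more of the genes Nkg7 was 2423 CPM and Gzma 7286 CPM, near the cells just inside, while Gzmc was 5207 CPM against 834 CPM just inside.

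Most cells carried NK markers outside the rule. Nkg7 was found in 98.0% of the cells with 2 of the 5 genes and in 33.3% of those with 1, and Il2rb, a receptor chain for interleukins 2 and 15, in 94.0% and 33.3%. Tyrobp, which encodes the receptor adaptor DAP12, was found in 96.0% and 86.7%, at 2097 and 969 CPM, the cells with 1 gene being deeper. One kind of exception was 3 cells with at least 20 Cd74 UMIs, a limit chosen after seeing the values. The one in shNC 1 had 71 UMIs of the macrophage gene Lyz2 and 0 of Nkg7, the one in shSELP 1 had 13 Nkg7 UMIs beside 126 of Cd74, and the one in shSELP 2 had 8 beside 131.

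NK cells held 1.27% of the UMIs of the mix but most of the UMIs of several receptor genes. Of all UMIs in the mix, they held 80.7% for Klra9 and 61.1% for Klra7, which encode the inhibitory receptors Ly49I and Ly49G, and 72.5% for Klra4, which encodes the activating receptor Ly49D. The Ly49 genes, with Klra8 of the rule among them, are close paralogs on chromosome 6. Reads of 1 member may have been counted for another. They held 10.9%, 73.9%, 1.19% and 80.2% of the UMIs of the granzyme gene Gzmc in shNC 1, shNC 2, shSELP 1 and shSELP 2, so this share was high in 2 libraries only. Over all libraries they held 31.5% of Xcl1, a chemokine for XCR1+ dendritic cells. The share was 29.6% for Gzma and 24.5% for Prf1, the perforin gene.

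Selp itself, at chromosome 1 positions 164115264 to 164150026 on the plus strand of mm10, was nearly absent. NK cells had 0, 2, 0 and 3 Selp UMIs in shNC 1, shNC 2, shSELP 1 and shSELP 2, and all cells of the mix had 0.743, 1.11, 1.21 and 0.823 CPM, so the knockdown could not be checked at this depth. Selplg, its ligand gene on chromosome 5 at 113818536 to 113832644, stood at 766 and 667 CPM in shNC and at 629 and 748 CPM in shSELP. The groups overlapped, and the log2 difference of shSELP against shNC was −0.09 (SE 0.21).

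NK cells made up 41 of 2183 cells in shNC 1, or 1.88% (exact binomial 95% interval 1.35% to 2.54%). They made up 93 of 2179 cells in shNC 2 (4.27%, 3.46% to 5.20%), 34 of 2190 in shSELP 1 (1.55%, 1.08% to 2.16%) and 58 of 2174 in shSELP 2 (2.67%, 2.03% to 3.44%). The highest and the lowest share belonged to different groups, but the groups overlapped, since shSELP 2 lay above shNC 1. The mean was 3.07% ± 1.69 (SD, n = 2) in shNC and 2.11% ± 0.789 (SD, n = 2) in shSELP. The difference of −0.963 percentage points had a two-sided exact permutation p of 0.667, where 0.333 is the smallest that 2 libraries against 2 can give. Without shNC 2 the difference was 0.232 points, so its direction rested on that library.

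As a share of NK cells and cells with 2 or more CD3 UMIs together, NK cells were 8.17% and 16.4% in shNC 1 and shNC 2. They were 7.23% and 10.8% in shSELP 1 and shSELP 2. No rule for B or plasma cells entered that total. The order of the libraries was the same as over all cells. In the CD11b+ table the rule found 2 of 2731 cells in the shNC library and 1 of 2804 in the shSELP library, a count too small to compare, and that table does not list Ncr1. A description line of several shSELP entries of that table names the control, so its groups rest on the other labels.

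**Figure D1:**
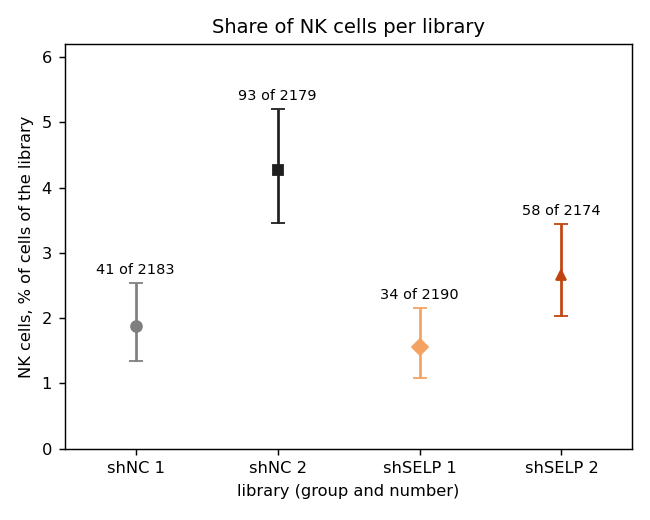
Share of NK cells among cells with at least 500 genes (%, vertical axis) in each library of the mix, with exact binomial 95% intervals and the counts behind each share. shNC 2 is highest at 4.27% and the other libraries lie between 1.55% and 2.67%.

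To place NK cells among killer lymphocytes, their summed UMIs were compared with those of 781 CD8 T cells of the same libraries (223, 182, 237 and 139 cells). CD8 T cells had 2 or more CD3 UMIs, Cd8a, no Cd4 and fewer than 2 of the NK genes. They were deeper, with median UMIs of 7298, 6649.5, 5076 and 9110, and the part of depth in the differences was tested only by thinning every cell to 2000 UMIs. With edgeR, library as a block and an adjusted p under 0.05, 1251 of 7775 genes outside both rules passed (16.1%). Of these, 672 (8.64%) were higher in NK cells and 579 (7.45%) lower, the median log2 difference of all genes was −0.03, and 2103 (27%) had an unadjusted p under 0.05. DESeq2 called 867 (11.2%), of which 521 (6.7%) were higher and 346 (4.45%) lower. The p-values measure only the spread between libraries, which may be technical.

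Among the largest single differences were receptor genes. Klra4 stood at 538, 433, 722 and 431 CPM in NK cells and at 0, 0, 0 and 2.06 CPM in CD8 T cells of shNC 1, shNC 2, shSELP 1 and shSELP 2. Klrb1b, which encodes the inhibitory receptor NKR-P1B, was at 214, 294, 155 and 260.3 CPM against at most 0.695. Every library showed both genes in NK cells and nearly none in CD8 T cells (edgeR log2 differences 9.77 and 9.03, adjusted p 4.85e-18 and 1.72e-16). They belong to the families of Klra8 and Klrb1c, genes that chose the NK cells, as does Klra7 below. The rule may thus have a part in these differences, which was not tested.

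The adaptors Tyrobp and Fcer1g, which link activating receptors to kinases, were also high. Tyrobp was at 2461, 1651, 2554 and 1912 CPM in NK cells and at 27.2 to 40.7 CPM in CD8 T cells (log2 difference 5.95). Fcer1g was at 2799.8, 2587, 2485 and 2742 CPM against 107 to 212 CPM (log2 difference 4.29). Both ranges stood far apart in all 4 libraries. Klrk1, the gene of the activating receptor NKG2D, averaged 718 CPM ± 84.2 (SD, n = 4) against 267 ± 70.3 (log2 difference 1.44).

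Of the fixed list of activating receptors and adaptors, 9 of 22 tested genes were higher in NK cells and 8 lower. Its median was −0.09 beside −0.03 for all genes, of which 8.64% were higher and 7.45% lower. Of inhibitory receptors with the Ly49 family, 8 of 19 were higher and 7 lower, with a median of 0.54. Pdcd1, which encodes the checkpoint receptor PD-1, had 2 UMIs in 1 library and none in the others, against 333, 318, 373 and 362 CPM in CD8 T cells (log2 difference −7.46). Ctla4, Lag3 and Havcr2, further checkpoint genes, averaged 75.6, 8.96 and 10.3 CPM in NK cells against 511, 131 and 85.7 CPM.

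The killing machinery differed gene by gene. Gzma was at 8598, 8024, 7244 and 6009 CPM in NK cells and at 1185, 2398, 3098 and 3067 CPM in CD8 T cells, so all NK libraries were above all CD8 libraries (log2 difference 1.69, edgeR adjusted p 5.8e-07). Prf1 was at 965, 904, 621 and 781 CPM against 473, 253, 254 and 246 CPM (log2 difference 1.47). Gzmb, which encodes granzyme B, averaged 3536 CPM ± 1486 (SD, n = 4) against 4616 ± 473 and did not pass (log2 difference −0.46, adjusted p 0.0944). Nkg7 averaged 2522 CPM against 3044 and did not pass either (log2 difference −0.27).

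Gzmk, the granzyme gene of less differentiated T cells, had 4 UMIs in all NK cells and 96.2 to 139 CPM in CD8 T cells. Serpinb9, an inhibitor of granzyme B that protects the killer cell, averaged 1068 CPM ± 57.0 (SD, n = 4) in NK cells against 324 ± 51.6 (log2 difference 1.73). Over the granule list, 8 of 18 tested genes were higher in NK cells and 2 lower, beside 8.64% and 7.45% of all genes. The list's median was 0.24. DESeq2 called 4 higher and 2 lower. Without the NK cells rich in Gzmc that are described below, the list's median was −0.22, with 5 higher and 6 lower. CD8 T cells with Gzmc stayed in. Gzmc is in the list, so this fit in part restates the selection and is no separate test. Over all genes of that fit 784 were higher and 788 lower of 7586.

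Among secreted signals, Xcl1 was at 3330.2, 2043, 2422 and 1304 CPM in NK cells and at 1129, 166, 213 and 217 CPM in CD8 T cells. NK libraries were above all CD8 libraries (log2 difference 2.81). Ccl3, an inflammatory chemokine, averaged 689.6 CPM ± 176 (SD, n = 4) against 212 ± 149 (log2 difference 1.94). Ccl5, a chemokine for T cells and myeloid cells, averaged 11009 CPM against 6946 (log2 difference 0.72). Ifng, the interferon-gamma gene, averaged 335 CPM against 387 and did not pass (log2 difference −0.13). Of the cytokine and chemokine list, 8 of 16 genes were higher and 2 lower, beside 8.64% and 7.45% of all genes. Its median was 0.82.

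Vegfa, which encodes a growth factor of blood vessels, was at 354, 298, 497 and 349.8 CPM in NK cells and at 9.71, 15.3, 17.4 and 18.6 CPM in CD8 T cells. The ranges did not overlap (log2 difference 4.60, edgeR adjusted p 3.7e-16). It was the 1 gene of the glycolysis and hypoxia list that was higher in NK cells. In the same list 15 of 22 genes were lower, beside 7.45% of all genes, with a median of −0.92. Among them was Ldha, which encodes lactate dehydrogenase, at a mean of 434 CPM against 899 CPM.

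Cell cycle genes were lower in NK cells, 24 of 29 with none higher, beside 7.45% and 8.64% of all genes. Their median was −1.50. DESeq2 called 21 of them lower and none higher. With every cell carrying 2 or more UMIs of cycling genes left out of both classes, 1 of 14 tested genes was lower and the median was −0.02, beside 400 of 5982 lower over all genes of that fit. Those cells were removed by the UMIs of such genes, so this restates the selection and is no separate test. Such cells were 1, 16, 0 and 11 of the NK cells in shNC 1, shNC 2, shSELP 1 and shSELP 2 and 98, 63, 45 and 50 of the CD8 T cells.

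Immediate early genes were higher in NK cells, 26 of 29 with none lower, beside 8.64% and 7.45% of all genes. Their median was 1.01. Junb, an AP-1 factor, was at 2586, 2016, 3494 and 2695 CPM against 1029, 1171, 1468 and 1502 CPM. After thinning to 2000 UMIs 21 of 28 were higher, beside 379 of 3957 over all genes of that fit. Cell isolation induces these genes too, and its part was not tested.

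Transcription factors of the NK lineage were in part above their CD8 level. Irf8, which NK cells need to mature and respond, was at 2395, 2124, 2049.7 and 1855 CPM against 459, 555, 446 and 388 CPM (log2 difference 2.19). Tbx21, which encodes T-bet, averaged 83.9 CPM ± 12.3 (SD, n = 4) against 44.3 ± 2.74 (log2 difference 0.89). Klf2, which keeps lymphocytes quiescent and circulating, was at 1444, 716, 1103 and 898 CPM against 75.0 to 140.1 CPM (log2 difference 3.40). Bcl11b, which commits cells to the T lineage, had 2 UMIs in all NK cells against a mean of 90.2 CPM. Of this list 10 of 25 genes were higher and 6 lower, beside 8.64% and 7.45% of all genes, with a median of 0.09.

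Homing genes differed in both directions. Cxcr6, a chemokine receptor of tissue-resident lymphocytes, averaged 4.58 CPM in NK cells and 378 CPM in CD8 T cells (log2 difference −5.63). Selplg was somewhat higher in NK cells, at a mean of 703 CPM ± 65.4 (SD, n = 4) against 521 ± 48.3 (log2 difference 0.44, edgeR adjusted p 0.037). Of the trafficking list 10 of 24 genes were higher and 5 lower, with a median of 0.39. Of the list for residence and type 1 innate lymphoid cells (ILC1) 5 of 13 were higher and 5 lower. Its median was −0.47, and over all genes 8.64% were higher and 7.45% lower. The ILC1 median was 0.04 without shSELP 1. With shNC 2 or shSELP 2 left out, 3 genes of this list were higher, beside 588 of 8311 and 436 of 8385 over all genes.

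Markers of NK maturation had a median of 1.06, with 9 of 18 higher and 5 lower, beside 8.64% and 7.45% of all genes. Itga2, the integrin CD49b of conventional NK cells, was at 58.9, 32.6, 38.8 and 75.9 CPM against at most 3.44 CPM (log2 difference 5.20). Itga1, the integrin CD49a of resident cells, averaged 27.2 CPM in NK cells and 70.1 CPM in CD8 T cells and did not pass (log2 difference −0.94). Klrg1 and S1pr5, markers of terminally mature NK cells, had 31 and 4 UMIs in all NK cells. Klrg1 was found in 6.28% of thinned NK cells and 0.786% of thinned CD8 T cells, so it too was higher in NK cells though sparse.

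The named genes with the largest differences also held Spry2, an inhibitor of growth factor signalling, Car2, a carbonic anhydrase, Cd9, a tetraspanin, and Txk, a kinase of the Tec family. Their log2 differences were 4.45, 4.02, 3.46 and 3.28, and Klra7 was 5.38 higher. Lower in NK cells were Ifitm1 (−4.48) and Ifi27l2a (−3.14), both interferon-induced, Lat (−3.78), the adaptor of the T cell receptor, Icos (−3.14), a costimulatory receptor, S100a4 (−3.22), a calcium-binding protein, and Gm8369 (−7.84), a gene model. Igkc, an antibody light chain, had −3.25, but 1 CD8 library, shNC 1, stood at 2056 CPM and the others at 17.4 to 71.4 CPM, and DESeq2 did not call it.

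**Figure D2:**
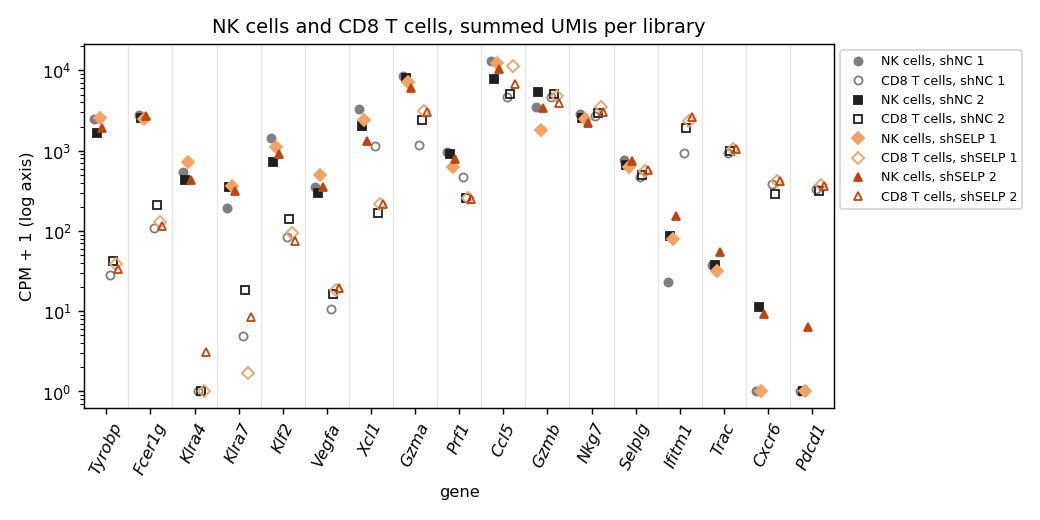
Levels (CPM + 1, log axis) of genes in NK cells (filled) and CD8 T cells (open), each point being the summed UMIs of 1 library. Tyrobp, Klra4 and Vegfa are higher in the NK cells of all 4 libraries and Trac, Cxcr6 and Pdcd1 lower, while Nkg7 and Gzmb overlap.

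Of type I interferon genes 3 of 36 were higher in NK cells and 6 lower with a median of −0.30, of interferon-gamma genes 1 of 25 higher and 3 lower with a median of 0.07, with interferon-gamma counts of 0 and 4 without shNC 1, 5 and 3 without shNC 2, 0 and 2 without shSELP 1 and 2 and 1 without shSELP 2. The type I counts were 4 and 3 without shNC 2, 2 and 4 without shSELP 1 and 1 and 6 without shSELP 2. Over all genes, 555 were higher and 485 lower of 8343 without shNC 1, and 588 and 685 of 8311 without shNC 2. They were 528 and 428 of 8368 without shSELP 1 and 436 and 404 of 8385 without shSELP 2. After thinning the interferon-gamma median was −0.25. Of cytokine receptors 6 of 22 were higher and 3 lower with a median of 0.05. For TGF-beta response genes it was 7 of 18 and 3 with 0.41. For glucocorticoid and quiescence genes it was 7 of 14 and none with 0.63. In the fit of all libraries 8.64% of all genes were higher and 7.45% lower. Heat shock genes had 2 of 15 higher and 3 lower with a median of −0.12, with none lower without shSELP 1 or shSELP 2 and 4 higher without shNC 2.

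T cell receptor genes were low but present in part. Trac, the alpha constant region, was at 36.8, 36.7, 31.1 and 54.2 CPM in NK cells against 922 to 1054 CPM (log2 difference −4.59), and Trbc2, a beta constant region, had −3.06. Trbc1, the other beta constant region, was at 567, 645, 528 and 678 CPM against 1105, 917, 373 and 444 CPM and did not pass. Trdc, the delta constant region, was at 73.7, 36.7, 23.3 and 43.4 CPM against at most 2.00 CPM. Cd4, Cd5, Cd40lg, Foxp3 and Trat1 had no UMI in any NK cell. Of 10 tested genes of the T cell list 8 were lower and 1 higher, beside 7.45% and 8.64% of all genes. The median was −5.05. Both rules used CD3 and Cd8a UMIs, so the lower T cell genes in part restate the selection.

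Markers of other cells were measured to see what else the NK sums hold. Of 10 neutrophil and mast cell genes 8 had no UMI, and their summed level was 0, 2.04, 7.76 and 2.71 CPM with S100a9 highest. Of 12 genes of B and plasma cells 6 had no UMI, with 235.8, 177.5, 147.5 and 225 CPM in sum and Ighm highest, and of 9 genes of red cells and platelets 6 had none, with 7.37, 0, 7.76 and 2.71 CPM in sum and Hbb-bt highest. Genes of other innate lymphoid cells had no UMI in 8 of 12, Il22 among them, with 29.5, 34.7, 69.9 and 54.2 CPM in sum and Gata3 highest. These lists were near 0 apart from single genes.

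Macrophage and microglia genes summed to 1363, 837, 1382 and 1117 CPM, with Cst3 highest, and tumor and brain genes to 825, 606, 1219 and 906 CPM, with Vim highest, a gene that lymphocytes transcribe too. Dendritic cell genes summed to 1407, 412, 3253 and 1302 CPM, with Cd74 highest and Cd209a, Clec9a and Ccr9 at 0. The dendritic list was highest in shSELP 1, where 1 cell held 126 UMIs of Cd74, 62 of H2-Aa, 90 of H2-Ab1 and 70 of H2-Eb1, so this order rested mostly on that cell.

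Shares of cells with a UMI were read after thinning to 2000 UMIs, which 207 NK cells allowed, while 8, 7, 2 and 2 cells of the libraries fell short. Gzma was found in 87.4% of NK cells (90.3% unthinned), 24.2% of CD8 T cells, 3.54% of CD4 T cells and 6.67% of 30 neutrophil-gated cells. The last class lacks this gene and shows the background for it, at unthinned median depths of 1598, 1729, 2928 and 2820 UMIs. Prf1 was found in 67.6% of NK cells (85.8% unthinned), 31.3% of CD8 T cells and no neutrophil-gated cell, and Xcl1 in 68.6% (73.9%), 16.5% and 3.33%. Most thinned NK cells thus had a UMI of Gzma, Prf1 and Xcl1, each taken alone, while Ifng and Ccl4 were each found in 87 of the 207 (56.2% and 55.8% unthinned). Ifng was found in 37.1% of CD8 T cells, 43.3% of CD4 T cells and no neutrophil-gated cell. Ccl4 was found in 38.8% of CD8 T cells, 23.1% of CD4 T cells and 46.7% of neutrophil-gated cells. The NK share was thus below that of CD4 T cells for Ifng and below that of neutrophil-gated cells for Ccl4.

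Other shares split NK cells. Gzmc was found in 17.4% of thinned NK cells (19.9% unthinned), 9.83% of CD8 T cells and no neutrophil-gated cell, Itga2 in 11.6% (43 of 226 cells unthinned), 0.262% and none. Cxcr6 was found in 0.966% (3.10%) of NK cells and 46.5% of CD8 T cells, Il7r, a receptor chain for interleukin 7, in 4.83% (9.29%) and 26.6%, and Mki67, a proliferation marker, in 1.45% (7.08%) and 11.9%. The NK shares of Il7r and Mki67 were below the 6.67% of neutrophil-gated cells, as was that of Itga1, at 2.42% against 3.33%, where the latter shares rest on 2, 2 and 1 of 30 cells. Selplg was found in 73.4% (88.1%) of NK cells, 65.4% of CD8 T cells and 30.0% of neutrophil-gated cells.

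The question of the knockdown was whether host NK cells differ between shSELP and shNC tumors. With edgeR, 2 of 3285 genes passed (0.0609%), both higher in shSELP, and none was lower (0.0%). At an unadjusted p under 0.05 there were 116 genes (3.53%), DESeq2 called 1 gene (0.0304%), and the median log2 difference was −0.01. The libraries of the groups did not overlap for 1114 genes (33.9%), of which 668 (20.3%) were higher and 446 (13.6%) lower. The count rested on the libraries, being 29 without shNC 1, 13 without shNC 2, 9 without shSELP 1 and 31 without shSELP 2, fits in which a lone library is assumed to vary like the other group.

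Cxcl9 and Gbp2 were the genes that passed. Only 1 of them passed with at least 3 NK genes required, and only 1 with no CD3 UMI allowed. Cxcl9, a chemokine for CXCR3+ lymphocytes at chromosome 5 positions 92321347 to 92328079, was at 14.7 and 20.4 CPM in shNC and at 489 and 219.6 CPM in shSELP (log2 difference 4.04, SE 0.47, edgeR adjusted p 0.00036). Gbp2, a guanylate-binding protein induced by interferon-gamma at chromosome 3 positions 142620602 to 142638008, was at 51.6 and 28.6 CPM in shNC and at 233 and 171 CPM in shSELP (log2 difference 2.40, SE 0.38, edgeR adjusted p 0.0132). Both were higher in 2 of 2 shSELP libraries, DESeq2 did not call Gbp2, and without shNC 2 Gbp2 did not pass either (log2 difference 1.92).

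These UMIs lay in 2 cells. In shSELP 1, 1 cell held 62 of the 63 Cxcl9 UMIs and 22 of the 30 Gbp2 UMIs, and in shSELP 2, 1 cell held 72 of 81 and 41 of 63. They are the cells with 126 and 131 Cd74 UMIs, with 14985 and 14487 UMIs in total, and the second was called a doublet by Scrublet. In the shNC libraries Cxcl9 had 2 and 10 UMIs and Gbp2 had 7 and 14, with at most 5 in any cell.

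Without the 3 NK cells that had at least 20 Cd74 UMIs, edgeR called 0 of 3227 genes, with 103 at an unadjusted p under 0.05. DESeq2 was not run on that set. Cxcl9 was then too low to test, and Gbp2 had a log2 difference of 0.87 that did not pass. The cells were picked after seeing the values and held most of these UMIs, so this fit restates where the UMIs lay and is no separate test.

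**Figure D3:**
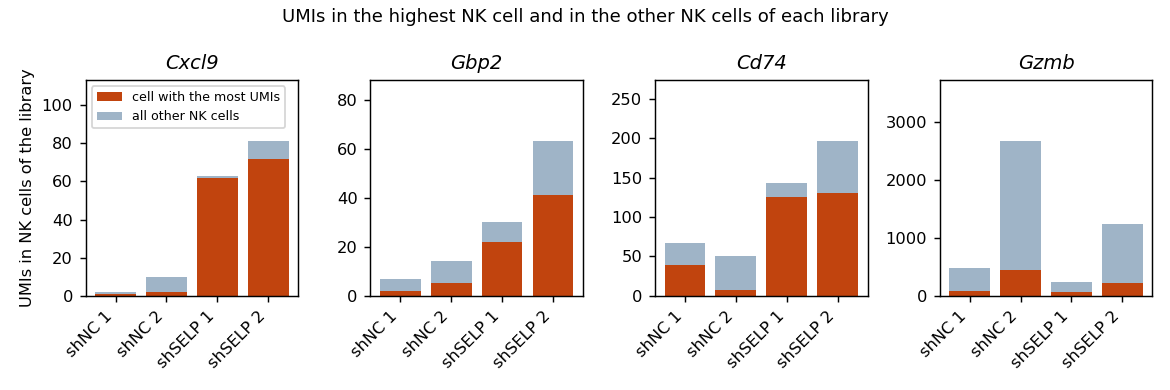
UMIs of Cxcl9, Gbp2, Cd74 and Gzmb in NK cells of each library, split into the NK cell with the most UMIs of that gene (red) and all other NK cells (blue). The highest cell holds 62 of 63 Cxcl9 UMIs in shSELP 1 and 72 of 81 in shSELP 2, while Gzmb is spread over many cells.

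Genes with the smallest unadjusted p among those that did not pass are given for their values. Ttr, the gene of transthyretin, a protein secreted by the choroid plexus, was at 73.7 and 112 CPM in shNC and at 2438 and 122 CPM in shSELP. Its 314 UMIs in shSELP 1 lay in all 34 NK cells, with a median of 8 a cell, and CD8 T cells of that library stood at 1925 CPM and all its cells at 8813 CPM, so shSELP 1 was the highest library in NK cells, in CD8 T cells and over all cells. Dusp2, a phosphatase induced on activation, was at 699.9 and 589.7 CPM in shNC and at 1475 and 930.1 CPM in shSELP (log2 difference 0.83). Phf11b, an interferon-induced gene, was at 29.5 and 46.9 against 148 and 122 CPM, but 28 of its 45 UMIs in shSELP 2 lay in 1 cell. Serpinb9b, a serpin, and Wdr89, a gene with WD repeats, had log2 differences of 1.79 and 0.97.

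On the lower side, Gzmb was at 3537 and 5430 CPM in shNC and at 1801 and 3376 CPM in shSELP (log2 difference −0.85, edgeR adjusted p 0.795). The groups came close, at 3537 and 3376 CPM, without overlapping. Ly6c2, a surface marker of mature NK cells, was at 472 and 314 CPM in shNC and at 139.8 and 179 CPM in shSELP (−1.27), and Top2a, a cell cycle gene, at 73.7 and 182 against 7.76 and 46.1 CPM (−2.11). Hspa1a, a heat shock gene, was at 332 and 44.9 CPM in shNC and at 7.76 and 38.0 CPM in shSELP (−2.34). Its UMIs lay in 3, 4, 1 and 1 NK cells of shNC 1, shNC 2, shSELP 1 and shSELP 2. In shNC 1, 1 cell held 28 of 45, and in shNC 2, 1 cell held 13 of 22. Trnau1ap, a factor of selenoprotein synthesis, had −1.33. Leaving out a library moved several past the threshold, among them Gzmb without shNC 1 (−1.15) or shSELP 2 (−1.39) and Ly6c2 without shNC 2 (−1.51) or shSELP 2 (−1.51). Top2a passed without shNC 1 (−2.46) or shSELP 2 (−4.19), Dusp2 without shSELP 2 (1.14) and Serpinb9b without shNC 1 (2.52) or shSELP 2 (2.48). Ttr passed without shNC 1 (3.32), shNC 2 (4.04) or shSELP 2 (4.52), and Hspa1a without shNC 2 (−3.47), shSELP 1 (−2.01) or shSELP 2 (−4.25).

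None of the core effector genes passed. Gzma was at 8598 and 8024 CPM in shNC and at 7244 and 6009 CPM in shSELP (log2 difference −0.38), and Prf1 at 965 and 904 against 621 and 781 CPM (−0.45). Ifng was at 390.5 and 386 against 279.5 and 285 CPM (−0.52), and Ccl4, an inflammatory chemokine, at 1017 and 904 against 1398 and 1472 CPM (0.53). The libraries did not overlap for these genes, as for 33.9% of all tested genes, and the differences did not pass.

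Gzmc varied more between libraries than between groups, at 833 and 7395 CPM in shNC and at 77.6 and 3495 CPM in shSELP. The log2 difference was −1.25 and did not pass. Without shNC 2 it was 1.17, the opposite direction and past the threshold, while it was −2.09 without shNC 1 and −5.84 without shSELP 2, both past it.

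By list, interferon-gamma genes had 1 gene of 19 that passed with edgeR in the response of NK cells (Gbp2), and no other list had any. At an unadjusted p under 0.05 there were 116 genes in all, and DESeq2 called none of the type I interferon, interferon-gamma or cell cycle lists. The interferon-gamma median was 0.28 and the type I interferon median 0.48 (0 of 15 passed), beside −0.01 for all genes. The interferon-gamma median was 0.39 without shNC 1, 0.08 without shNC 2, where no gene passed, 0.04 without shSELP 1 and 0.51 without shSELP 2. Of type I genes 1 of 28 was higher without shNC 1 and 1 of 13 lower without shSELP 2. Without the 3 cells rich in Cd74 these medians were 0.20 and 0.33.

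Fits with a library left out test other numbers of genes, and over all genes they called 16 higher and 13 lower of 4952 without shNC 1, 9 and 4 of 2389 without shNC 2, 4 and 5 of 4904 without shSELP 1 and 18 and 13 of 2406 without shSELP 2. Cell cycle genes had a median of −0.38 with 0 of 11 passed in NK cells of all libraries. The median was −1.45 with 7 of 25 lower without shNC 1, 0.55 with 0 of 8 without shNC 2, −0.55 with 1 of 25 lower without shSELP 1 and −1.75 with 1 of 12 lower without shSELP 2. Heat shock genes had −0.24 with 0 of 12, while 1 of 12 was lower without shNC 2, 1 of 13 without shSELP 1 and 1 of 12 without shSELP 2. Granule genes had −0.13 with 0 of 14, but 3 of 16 were lower without shNC 1, 3 of 13 higher without shNC 2, 1 of 16 higher and 1 lower without shSELP 1 and 4 of 13 lower without shSELP 2, where the median was −0.65. Cytokines and chemokines had 0.12 with 0 of 8, with a median of 0.44 over 11 genes without shNC 1 and −0.09 over 9 without shNC 2.

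Lists of other cells were also followed in the NK sums. Dendritic cell genes had 1.53 with 0 of 6, which was 0.17 over 5 genes without the 3 cells, 2.24 with 4 of 7 higher without shNC 1, 0.71 over 5 genes without shNC 2, 0.77 over 7 without shSELP 1 and 2.07 with 4 of 5 higher without shSELP 2. Macrophage and microglia genes had 0.27 with 0 of 7, which was 0.79 over 8 genes without shNC 1, 0.62 with 1 of 9 higher and 1 lower without shNC 2, −0.20 with 1 of 9 lower without shSELP 1, 0.71 with 1 of 9 higher and 1 lower without shSELP 2 and 0.67 over 7 genes without the 3 cells. Tumor and brain genes had 0.16 with 0 of 3, with 1 of 4 higher without shNC 1, shNC 2 or shSELP 2 and a median of −0.38 over 5 genes without shSELP 1. Maturation genes of NK cells had 0.07 with 0 of 14, with 1 of 15 lower without shNC 2 and 2 of 14 lower without shSELP 2. The remaining medians lay between −0.25 and 0.56 in the fit of all libraries.

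Whether NK cells responded to shSELP unlike CD8 T cells was tested as an interaction in edgeR. Of 7775 genes 12 passed (0.154%), 8 higher in the response of NK cells (0.103%) and 4 lower (0.0514%). At an unadjusted p under 0.05 there were 243 (3.13%), and DESeq2 called 1 (0.0129%). The count was 31 without shNC 1, 14 without shNC 2, 1 without shSELP 1 and 6 without shSELP 2. Of the 12 genes, 7 were Cxcl9, Gbp2, Ccl17 and the class II MHC genes Cd74, H2-Aa, H2-Ab1 and H2-Eb1, whose UMIs in shSELP lay mostly in the cells described above. Without the NK cells that had at least 20 Cd74 UMIs, 10 genes passed, 5 of them shared with the 12, and none of those 7 was among them, which again restates where their UMIs lay.

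Gzma was among the other 5, with the CPM given above for both classes. Its level was lower in shSELP than in shNC in NK cells and higher in CD8 T cells (difference in log2 response −1.32, edgeR adjusted p 0.0256). It did not pass with DESeq2, without shNC 1 (−0.79), without shSELP 1 (−1.36) or without shSELP 2 (−1.29). Klri2, a lectin-like receptor of NK cells, was at 192 and 169 CPM in shNC and at 155 and 125 CPM in shSELP, while CD8 T cells had 11.2 and 6.67 against 31.3 and 37.8 CPM (−2.48, edgeR adjusted p 0.0141). Klri2 did not pass without shNC 2 (−2.20), shSELP 1 (−2.66) or shSELP 2 (−2.25), nor with DESeq2. For both genes the group means lay further apart in CD8 T cells than in NK cells, as a ratio.

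NK cells varied in Gzmc, one of a cluster of granzyme genes on chromosome 14, itself at 56231441 to 56234656. The split below was made after seeing the values and is a description without a test. The 5036 Gzmc UMIs of NK cells were uneven, since 5 cells held 59.9% of them and 181 cells had none. Cells with at least 10 Gzmc UMIs numbered 23, of which 2 were in shNC 1, 16 in shNC 2, 0 in shSELP 1 and 5 in shSELP 2. They were deeper, with a median of 10069 UMIs against 3362 in cells without Gzmc, and 0 of them were called doublets by Scrublet.

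The cells rich in Gzmc nearly lacked Ccl5, although they were deeper. In shNC 2, Ccl5 was at 34.9 CPM in these cells and at 16319 CPM in cells without Gzmc, and in shSELP 2 at 51.5 and 15369 CPM. In shNC 1, where there were 2 such cells, it was at 2479 and 16585 CPM. Ccl5 had a UMI in 10 of the 23 cells and in 175 of the 181. Ccl3 had a UMI in 0 of 23 and 95 of 181, and Ccl4 in 5 and 112.

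**Figure D4:**
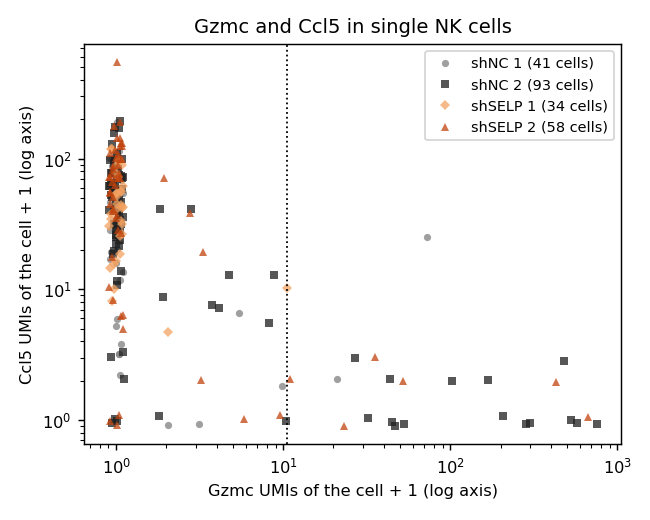
Gzmc UMIs + 1 (horizontal, log axis) against Ccl5 UMIs + 1 (vertical, log axis) in each of the 226 NK cells, with points shifted slightly at random so that equal counts show, and colored by library. Right of the dotted line are the 23 cells with at least 10 Gzmc UMIs, most of which have few or no Ccl5 UMIs.

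Other genes split along with Gzmc. Itga1 had a UMI in 10 of the 23 cells and 4 of the 181, and Itga2 in 0 and 37, while both were found in 27.3% of the 22 cells with 1 to 9 Gzmc UMIs. Klf2 was at 187 CPM in the cells rich in Gzmc and 1244 CPM in those without it, and Klra4 at 118 and 649 CPM, summed over libraries. In the 2 cells of shNC 1 the order was the opposite for both, with Klf2 at 1745 and 1584 CPM and Klra4 at 1010.0 and 553 CPM. Gzmb was at 7102 and 3112 CPM and Gzma at 3541 and 9337 CPM, with the opposite order in shNC 1 (24791 and 7866 CPM). Prf1, at 768 and 857 CPM, and Selplg, at 575 and 784 CPM, were closer, and Ncr1, a gene of the rule, had a UMI in 17 of the 23.

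Genes averaging at least 100 CPM were ranked by their log2 ratio in shNC 2 or shSELP 2, whichever was smaller in size. By this rank the genes most in favor of cells rich in Gzmc included the granzyme genes Gzmd, Gzme and Gzmf. The others were Spp1, which encodes osteopontin, Thy1, a surface glycoprotein, and Ctla4. Of the 23 cells, 4 had a Gzmd UMI, 3 a Gzme UMI and 2 a Gzmf UMI, so these values come from few cells. These granzyme genes are near paralogs of Gzmc, and reads of 1 may have been counted for another. By the same rank, those most in favor of cells without Gzmc were Ccl5, Ccl3, Ccl4 and Zfp36l1, an RNA-binding protein. Next came Klf2 and Tsc22d3, a glucocorticoid-induced gene. Cells with 2 or more UMIs of cycling genes were 9 of the 23 and 15 of the 181, and the part of depth and of the cell cycle in this split was not tested.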

How the data were processed

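Single-cell RNA libraries of the whole-tumor mix (4 libraries) were used. Per the labels and the study's methods, the authors aligned reads to mm10 with Cell Ranger 1.3, filtered cells, drew equal numbers per group and deposited UMI counts per gene and cell, neither scaled nor normalized. Labels name the v2 kit and the methods the v3 kit. Coordinates are from GENCODE M21, where 19998 of the 20300 symbols of the mix table occur once. The members and gene lists were chosen with earlier results of these data known.

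From these counts, UMIs were summed per library over NK cells and over CD8 T cells (Python 3.11.15, numpy 2.4.6, pandas 2.3.3). Sums were tested with the quasi-likelihood F test of edgeR 4.0.16 after filterByExpr and TMM scaling (R 4.3.3), with Benjamini-Hochberg adjustment over all genes tested at 0.05. DESeq2 1.42.0 was the other tool. Genes of the cell rules stayed in the fits and were left out of counts. CPM were computed from the sums without TMM. Shares used exact permutation tests and exact binomial intervals (scipy 1.17.1), which cover counting error only. Thinning drew 2000 UMIs per cell with seed 1. Alternatives were the other tool, no filter, each library left out, a replicate block, thinning, stricter cell rules, and doublets, cycling cells or cells with foreign genes left out. Doublets were called with Scrublet (scanpy 1.11.5, rate 0.05, 76 calls in the mix). Figures used matplotlib 3.10.9.

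Genes were named by a rule. For shSELP against shNC these were called genes averaging 50 CPM or more without overlap, or, with fewer than 5, the 5 smallest p. Against CD8 T cells they were the 12 largest called differences each way at 100 CPM or more, and for the difference in response the 5 smallest p. Markers, Selp, Selplg and examples from lists were also named. Genes of the Gzmc split and others given with a list were chosen after their values were seen.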

Additional observations from a re-analysis of the deposited data

Results flagged for a closer look

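In 12 genes the response of NK cells to shSELP differed from that of CD8 T cells by the edgeR test of the difference itself. The adjusted p was 8.6e-13 for Cxcl9, 0.0139 for H2-Ab1, 0.0141 for Klri2, 0.0141 for Ccl17, 0.0174 for Cma1, 0.0248 for H2-Aa, 0.0256 for Cd74, 0.0256 for Rgcc, 0.0256 for Gzma, 0.0422 for Hist1h1b, 0.0422 for Gbp2 and 0.0486 for H2-Eb1. DESeq2 called 1 of them, Cxcl9. Without the NK cells of at least 20 Cd74 UMIs, Cxcl9, Gbp2, Ccl17 and the class II MHC genes were not among those that passed.

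Cxcl9 was at 14.7, 20.4, 489 and 219.6 CPM in NK cells of shNC 1, shNC 2, shSELP 1 and shSELP 2. It was at 92.3, 43.4, 5.56 and 7.57 CPM in CD8 T cells (difference in log2 response 7.05). Of its NK UMIs, 1 cell held 62 of 63 in shSELP 1. In shSELP 2, 1 cell that Scrublet called a doublet held 72 of 81. Cd74 was at 494, 102, 1110.3 and 531 CPM in NK cells (2.24), and 1 cell held 126 of its 143 UMIs in shSELP 1 and 1 held 131 of 196 in shSELP 2. The differences for H2-Ab1, H2-Aa, H2-Eb1 and Gbp2 were 2.83, 2.37, 2.47 and 2.40. Without shSELP 1 the differences were 1.32 for H2-Ab1, 1.12 for H2-Aa, 0.87 for H2-Eb1, 0.98 for Cd74 and 1.92 for Gbp2, and none of them passed. Without shNC 2 they were 1.50 for H2-Aa, 1.42 for H2-Eb1, 1.31 for Cd74 and 0.84 for Gbp2, again not passing, and Gbp2 did not pass without shSELP 2 (2.90).

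Ccl17, a chemokine for CCR4, had 9 UMIs in NK cells, all in shSELP 1 and 8 of them in 1 cell, and it did not pass without that library. Cma1, a chymase gene, was at 103, 46.9, 93.2 and 40.7 CPM in NK cells, while CD8 T cells had 171 CPM in shNC 2 and no UMI elsewhere. Hist1h1b, a histone gene, had 42 UMIs in NK cells of shNC 2 and none in the other libraries. Rgcc, a cell cycle regulator, was at 95.8, 36.7, 0 and 8.14 CPM in NK cells and at 33.5, 20.7, 35.4 and 35.1 CPM in CD8 T cells. These 3 did not pass without shSELP 1 or without shSELP 2. Without shNC 2 the differences for Cma1 and Hist1h1b had the opposite direction. What caused any of these differences was not tested.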

How the results depend on the processing

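Of 384 values for 24 named genes in NK against CD8 T cells, 382 kept direction and side of the threshold and 2 kept direction only. For shSELP against shNC it was 168 of 215 values over 14 genes, with 40 moving past the threshold, 6 losing it and 1 changing direction, and for the difference in response 108 of 175 over 12 genes, with 65 losing it and 2 changing direction.

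The count of 2 genes for shSELP against shNC was 1 with DESeq2, 27 without the filter on low counts, 9 to 31 with a library left out, 32 with a replicate block, 0 after thinning (1315 genes tested, neither gene among them, 66 at an unadjusted p under 0.05), 1 without CD3 UMIs, 0 without Scrublet calls (93 unadjusted) and 4 without cycling cells. Alternatives chosen after seeing the data gave 5 without cells of 10 or more macrophage UMIs, 0 without those of 20 or more Cd74 UMIs and 8 without those of 10 or more Gzmc UMIs. The block assumes that equal library numbers pair libraries, which the labels do not say. Deviations of shNC 1 and shSELP 1 from their group means correlated at 0.197 over genes. Those of shNC 2 and shSELP 2 mirror them. The count of 1251 against CD8 T cells was 702 after thinning (3957 tested) and 840 to 1273 with a library left out. The count of 12 for the difference in response was 1 with DESeq2, 1 to 31 with a library left out, 5 after thinning, 22 with at least 3 NK genes, 2 without Scrublet calls, 5 without cycling cells and 20 without Gzmc-rich cells.

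The difference in NK share, −0.963 points, ran from −2.16 to 0.232 with a library left out. It ran from −0.985 to −0.597 under other definitions, apart from −3.27 as a share of NK cells and cells with 2 or more CD3 UMIs. Without shNC 2, log2 differences changed direction for Gzmc (1.17), Cma1 (−0.70) and Hist1h1b (0.78). The furthest values were −5.84 for Gzmc without shSELP 2, and 10.59 for Cma1 and −9.03 for Hist1h1b without shNC 1, the last 2 set by groups with no UMI. The cause was not tested. The comparisons rest on 34 to 93 NK cells a library and 2 libraries a group.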
